A study of Mus musculus with 4 samples.

Results

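The collagen gene family was taken as every gene symbol of the form Col, a number, the letter a and a number that had at least 20 counts in at least 1 library. The pattern found 43 genes among the 23337 symbols measured, and all 43 met the count minimum. They were grouped by collagen type, so that Col27a1, a cartilage fibril gene, falls outside the listed fibrillar types. The 8 basement membrane genes are those of types IV, XV and XVIII, the 9 fibrillar genes those of types I, II, III, V and XI, Col10a1 stands alone, and the remaining 25 genes form the group called others.

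RNA came from lymphatic endothelial cells of mouse embryos at day 14.5, wild type or carrying a deletion on both copies, with 1 library for each of 4 groups. The wild type and mutant groups before culture held cells with LYVE1 and VECAD and without CD45, sorted from the dorsal anterior region of embryos pooled by litter. The wild type and mutant groups after culture held the other part of the same sorts, kept 7 days on OP9 cells with FLT3L, IL3 and SCF at 100 ng/ml each and sorted again for LYVE1 and VECAD, with no CD45 gate stated. OP9 is a mouse stromal line, so transcripts from a feeder cell carried through the sort would be counted for the same genes. The labels give neither the strain nor the place of the deletion, and call each library a single replicate. The series title speaks of an enhancer that GATA2 binds, and in the published work it belongs to Prox1, the gene of a lymphatic fate factor. Prox1 stood at 507 CPM in the wild type and 487 CPM in the mutant library before culture, and at 207 and 137 CPM after it, which cannot check the labels because only an enhancer was deleted.

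Collagens are secreted proteins whose chains wind around one another into a stiff helix. Type IV chains join into the sheet of the basement membrane beneath endothelium, where types XV and XVIII also sit, whereas fibrillar collagens pack into the fibres of connective tissue, cartilage and bone. Lymphatic capillaries are known for a thin, interrupted basement membrane, and type X collagen is known as a product of hypertrophic chondrocytes, the enlarged cells of growing cartilage.

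Gene counts totalled 1694669 to 7943587 per library. A level is given in CPM, the count relative to the library total after TMM scaling, and is divided by exon length in kb where genes are compared with each other. A fold is the ratio of 2 CPM values with its 95% counting interval, and a gene was called where that whole interval lay beyond 2-fold. With 1 library per group no p-value was computed, the spread between animals was not measured, and every statement compares libraries. Of uniquely aligned read pairs, 66.7% to 89.3% were assigned to no gene in counting. Where these pairs lay is not known, since the annotation and strand setting used were not given. A total of 1402 olfactory and vomeronasal receptor genes, which are normally silent outside sensory neurons, had a coding-sequence density of 6.64 (wild type) and 8.33 (mutant) counts per kb before culture, and of 0.534 and 1.62 counts per kb after it. This rate, multiplied by exon length, is called the expected background. The markers of the sort were present, Cdh5 (VECAD) at 1003 to 2477 CPM, and Lyve1 at 889.6 to 3523 CPM, while the lymphatic glycoprotein gene Pdpn had 435 and 915 counts before culture but 0 and 8 after it in the wild type and mutant libraries.

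The sequences just upstream of 4 members that recur below show how unlike these promoters are in base composition and in short core motifs. Each is the 250 bases before the RefSeq gene start on GRCm38.p6, all on the plus strand, and capitals mark matches to 5 short motifs searched on both strands. The TATA box was searched as TATAAA. The CCAAT box was searched by the letters of its name. The GC box was searched as GGGCGG. The RUNX core was searched as TGTGGT. The SOX core was searched as ACAAAG.
Col10a1, chr10:34389731-34389980: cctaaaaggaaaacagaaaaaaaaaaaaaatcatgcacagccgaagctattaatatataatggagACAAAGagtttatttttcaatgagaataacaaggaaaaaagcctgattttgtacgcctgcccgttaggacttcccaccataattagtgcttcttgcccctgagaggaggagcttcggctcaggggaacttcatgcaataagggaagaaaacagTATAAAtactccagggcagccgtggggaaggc
Col3a1, chr1:45311288-45311537: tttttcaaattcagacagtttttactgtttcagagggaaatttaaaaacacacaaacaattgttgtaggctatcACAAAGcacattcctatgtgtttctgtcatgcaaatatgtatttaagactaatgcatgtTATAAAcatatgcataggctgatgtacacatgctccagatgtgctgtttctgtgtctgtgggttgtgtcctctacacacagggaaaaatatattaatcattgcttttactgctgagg
Col5a1, chr2:27886175-27886424: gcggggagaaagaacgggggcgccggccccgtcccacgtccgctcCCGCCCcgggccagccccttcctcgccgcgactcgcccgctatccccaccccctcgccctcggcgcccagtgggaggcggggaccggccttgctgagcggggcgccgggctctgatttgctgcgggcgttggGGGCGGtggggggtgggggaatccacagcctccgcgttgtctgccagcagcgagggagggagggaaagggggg
Col11a1, chr3:114030290-114030539: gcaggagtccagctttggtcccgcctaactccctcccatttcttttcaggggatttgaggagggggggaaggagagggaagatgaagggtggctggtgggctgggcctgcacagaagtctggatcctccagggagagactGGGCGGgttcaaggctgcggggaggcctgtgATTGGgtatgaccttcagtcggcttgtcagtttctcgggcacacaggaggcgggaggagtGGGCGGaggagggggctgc
The Col10a1 window held a TATA box whose first base lay 32 bases before the start and a SOX core 185 bases before it. The Col3a1 window held a TATA box at 117 bases and a SOX core at 176 bases before the start. In contrast, the Col5a1 and Col11a1 windows had no TATA box and 2 GC boxes each, with a CCAAT box on the opposite strand in Col11a1. Guanine and cytosine made up 41.6% of the window in Col10a1, 35.2% in Col3a1, 76.4% in Col5a1 and 62.4% in Col11a1. Among all 32851 mouse promoter windows of the same table, 12.4% held the TATA box, 33.8% the CCAAT box, 32.7% the GC box, 14.05% the RUNX core and 16.5% the SOX core. Windows were found for 35 of the 43 genes, 38 windows in all, of which 5 held the TATA box, 13 the CCAAT box, 22 the GC box, 3 the RUNX core and 4 the SOX core. A match is a string of letters and not a shown binding site. Several type IV genes share their upstream region in pairs. Col4a1 on the minus strand and Col4a2 on the plus strand of chromosome 8 start head to head with the first 22 bases of both overlapping, Col4a4 and Col4a3 start 71 bases apart on chromosome 1, and Col4a6 and Col4a5 start 1308 bases apart on chromosome X.

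In all libraries the most abundant collagen message by count was Col4a1, which encodes a main chain of the type IV network. Col4a1 (chromosome 8, 11198423 to 11312826, minus strand) stood at 2099 CPM (2059 to 2140) for wild type and 1989.8 CPM (1961 to 2019) for mutant cells before culture, and at 6312 CPM (6180 to 6446) and 5436 CPM (5357 to 5515) after culture. Its partner chain Col4a2 had 914, 907, 3496 and 3002 CPM in the same order, wild type before, mutant before, wild type after and mutant after culture, which is used for every such list of 4 values. Both genes were thus lower in the libraries before culture, and the genotypes lay near each other at either time. Col18a1, whose product yields endostatin, had 1596, 1641, 1052 and 965 CPM. Col15a1, which encodes its close relative, had 252, 308, 44.4 and 40.7 CPM. In these genes the order of the culture states was the opposite of that of Col4a1. The other type IV genes were scarce. Col4a5 had 66.2, 64.7, 27.6 and 20.9 CPM, and Col4a6 had 24.9, 29.5, 8.0 and 8.07 CPM. Col4a3 and Col4a4, whose chains are known from the kidney filter, were never above the background range, defined as the 95th percentile of receptor genes per kb in the same library. Col4a4 had 154, 237, 14 and 43 counts, where the expected background was 67.1, 84.2, 5.40 and 16.4 counts.

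Most fibrillar genes were highest in the mutant library before culture. Col3a1, which encodes the fibrillar collagen of soft tissue and vessel walls (chromosome 1, 45311538 to 45349706, plus strand), stood at 1243 CPM (1212 to 1274) for wild type and 1871 CPM (1843 to 1899) for mutant cells before culture, and at 196 CPM (174 to 221) and 119 CPM (107 to 131) after it. The chains of type I collagen, the main fibre protein of skin, tendon and bone, are encoded by Col1a1 and Col1a2. Col1a1 (chromosome 11, 94936224 to 94953042, plus strand) had 943, 1630.3, 374 and 329 CPM, and Col1a2 had 736, 1185, 468 and 373 CPM. Col2a1, the cartilage fibril gene (chromosome 15, 97975602 to 98004695, minus strand), had 419, 675, 143 and 149.5 CPM. All of these were highest in the mutant library before culture and lowest in 1 of the cultured libraries. Col5a2 and Col5a1 encode type V, which sits inside type I fibrils. Col5a2 had 364, 443, 480.2 and 326 CPM and was the only fibrillar gene that was highest in the cultured wild type library. Col5a1 had 313, 491, 154 and 163 CPM. The type XI genes of cartilage fibrils were lower, with Col11a1 at 183, 278, 43.7 and 53.8 CPM and Col11a2 at 80.9, 111, 12.4 and 17.0 CPM. Col5a3, another type V gene, had 32.7, 32.6, 18.2 and 22.1 CPM.

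Col10a1 (chromosome 10, 34389981 to 34397085, plus strand) had 226 counts in the wild type and 36 in the mutant library before culture, and 4 and 9 counts after culture. The expected background was 20.8, 26.1, 1.67 and 5.07 counts in the same order. The wild type library before culture was therefore the only library in which Col10a1 stood above the 95th percentile of receptor genes. The Col10a1 level there was 45.4 CPM (39.6 to 51.7) or 14.5 CPM per kb of exon.

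Among the others the type VI genes, which build beaded filaments around cells, and the fibril-associated genes led. Col6a1 had 101, 149, 255 and 197 CPM, Col6a2 had 107, 161, 200.1 and 178 CPM, and Col6a3 had 203, 275, 189.9 and 132 CPM. Col6a1 and Col6a2 were thus highest in the cultured wild type library, whereas Col6a3 was highest in the mutant library before culture. Col12a1 and Col14a1 encode collagens that decorate fibrils. Col12a1 had 265, 378, 77.8 and 131 CPM, and Col14a1 had 132, 186, 64.7 and 60.7 CPM. Col23a1, which encodes a membrane-bound collagen, had 108, 124, 228 and 194 CPM and so shared the order of Col6a1. The type IX genes of cartilage, Col9a1, Col9a2 and Col9a3, had 360, 174 and 232 counts in the wild type and 939, 498 and 622 counts in the mutant library before culture. After culture they had 2, 6 and 16 counts in the wild type and 25, 25 and 34 counts in the mutant library. Col16a1 had 71.2, 99.97, 21.8 and 27.5 CPM, Col27a1 had 47.0, 68.3, 8.73 and 29.6 CPM, and Col6a6 had 62.0, 64.8, 13.8 and 19.7 CPM. These genes were lowest in the cultured wild type library. Col22a1 had 46.0, 35.1, 13.8 and 20.9 CPM, Col24a1 had 31.1, 24.0, 4.37 and 8.37 CPM, and Col8a2 had 11.2, 23.7, 3.64 and 2.39 CPM. Per kb of exon the others had a median of 5.80 and 5.46 CPM per kb before culture and 1.72 and 2.71 CPM per kb after it, against a 95th percentile of receptor genes of 3.91, 2.77, 2.26 and 1.63 CPM per kb.

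Before culture, 36 of the 43 genes stood above that percentile for wild type and 40 for mutant cells. After culture the numbers were 24 and 35. The percentile itself differed, at 19.5, 25.5, 3.11 and 5.46 counts per kb. The share of all genes above it was not computed, so these numbers, and those of gene lists below, describe the listed genes only. The 22 genes above it in all 4 libraries included 5 of the basement membrane group, 8 of the fibrillar group and 9 of the others. Col6a5, Col24a1 and Col19a1 were above it only in the libraries before culture, and Col4a3 and Col4a4 in none. The wild type library after culture has the fewest counts, so that a low message is hardest to see there.

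**Figure D1:**
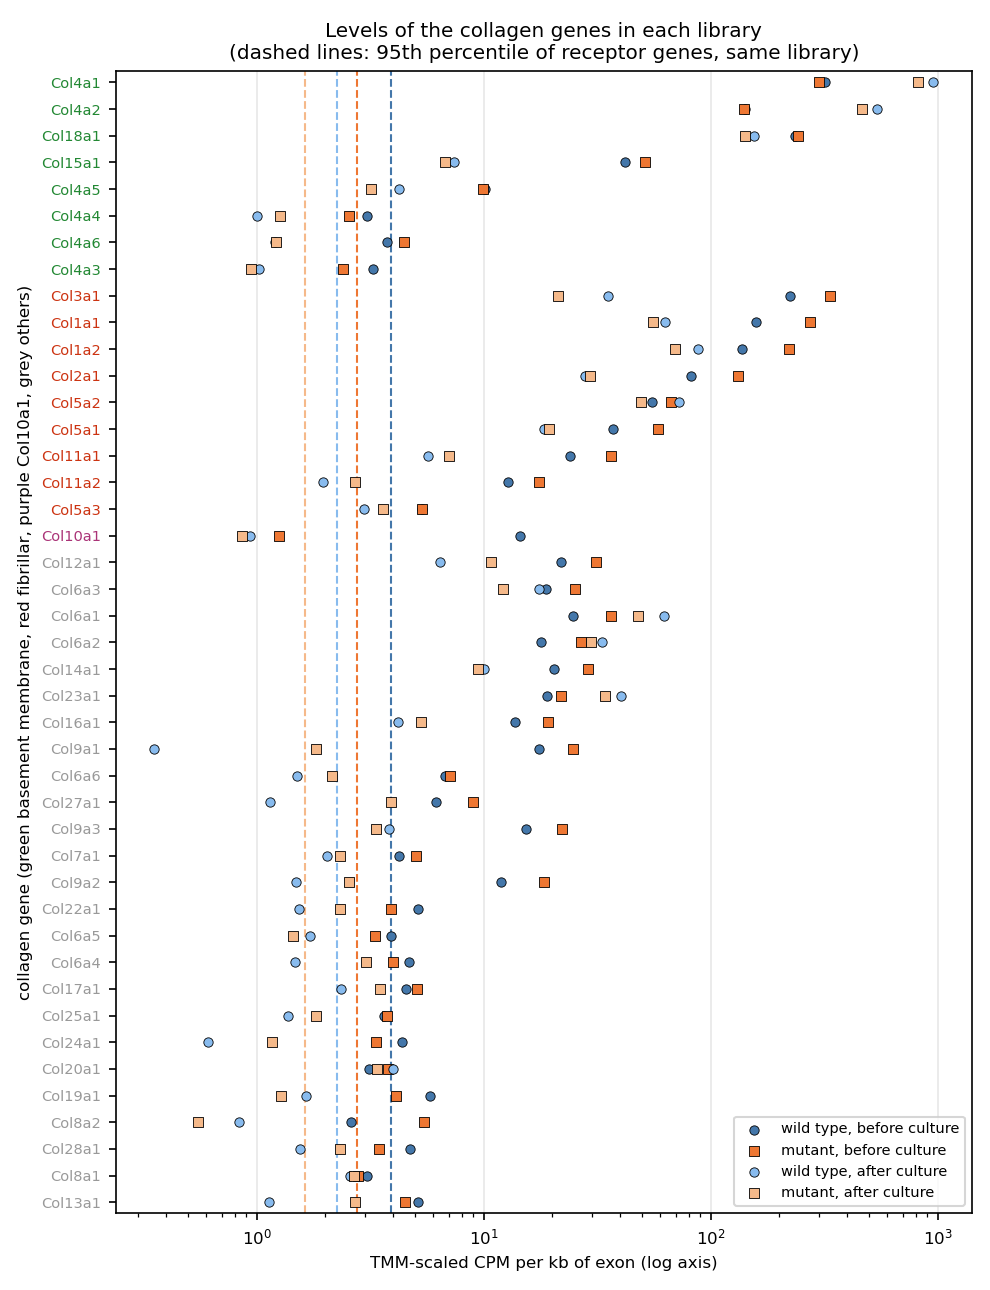
Level of each of the 43 collagen genes in each library, in TMM-scaled CPM per kb of exon on a log axis, with 1 point per library and dashed lines at the 95th percentile of receptor genes in the same library. Col4a1 and Col4a2 lie farthest right in the cultured libraries, the fibrillar genes other than Col5a2 lie farther right before culture than after it, and Col10a1 passes its line only in the wild type library before culture.

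The family made up 1.37% and 1.60% of all gene counts before culture and 1.14% and 1.04% after it, wild type first. Before culture the basement membrane genes held 45.7% of collagen counts (exact binomial interval 45.3 to 46.1) in the wild type and 36.2% (36.0 to 36.5) in the mutant library, and the fibrillar genes 39.3% (38.9 to 39.8) and 48.8% (48.5 to 49.1). After culture the basement membrane genes held 77.9% (77.3 to 78.5) and 77.7% (77.3 to 78.1), and the fibrillar genes 13.4% (13.0 to 13.9) and 12.7% (12.4 to 13.0). The genotypes thus differed in make-up before culture and hardly after it. Col4a1 and Col4a2 alone held 44.9% and 24.8% of collagen counts in the cultured wild type library, and 44.5% and 24.6% in the cultured mutant library. Intervals here and below cover counting error only, since PCR copies were not marked by molecular identifiers and pairs need not be independent molecules. In a bulk library, fewer cells of a type and less RNA per cell cannot be told apart.

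**Figure D2:**
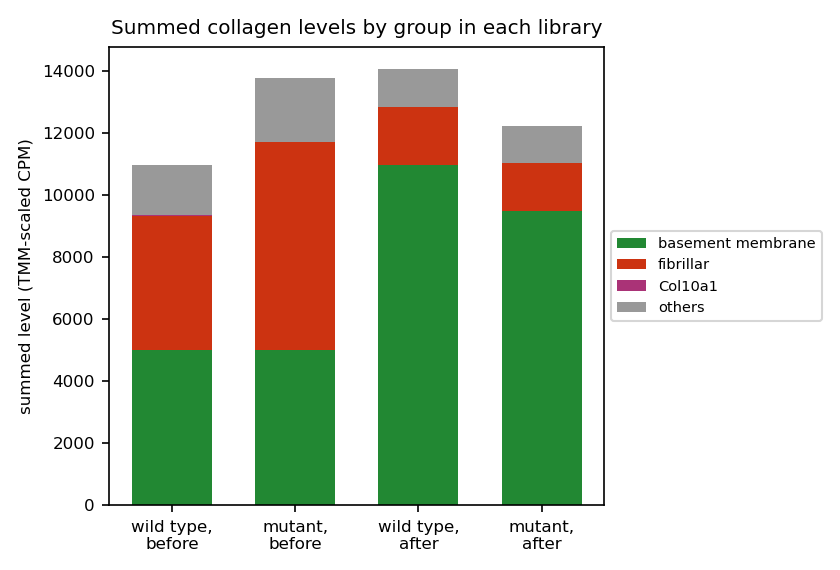
Summed level of the collagen genes in each library, in TMM-scaled CPM, stacked by group. The basement membrane part is 5011 and 4986 CPM before culture and 10959 and 9493 CPM after it, and the fibrillar part 4314, 6717, 1890.1 and 1553 CPM, in the order wild type before, mutant before, wild type after and mutant after.

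The comparison of the mutant with the wild type library before culture asks what the deletion changes in lymphatic endothelium of the embryo. Col10a1 was the 1 member called, lower in the mutant library at 0.0862 times the wild type level (0.0588 to 0.123). No member was called higher. Over all 18934 genes tested, 0.0475% were called lower and 0.0158% higher. Fibrillar genes had higher values in the mutant library, at folds below the 2-fold rule. Summed over the group they reached 1.56 times the wild type value (1.53 to 1.58), while the basement membrane sum was 0.995 times (0.980 to 1.01).

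For Col10a1 the 36 mutant counts were not separable from the expected background of 26.1 counts, so that the fold rests on the wild type library. For that reason no fold of the gene is given with background subtracted. Its genomic neighbours had folds whose intervals held 1. Nt5dc1, which overlaps Col10a1 on the opposite strand over 18 exon bases, had 59 and 96 counts and a fold of 0.880 (0.630 to 1.24). Tspyl4, the nearest gene upstream, had a fold of 0.946 (0.724 to 1.24), and Frk, the nearest downstream, 0.774 (0.558 to 1.08). Frk had 13.4 and 19.2 counts per kb, and Nt5dc1 had 18.3 in the wild type library. These lay within the background range, whose upper ends were 19.5 (wild type) and 25.5 (mutant) counts per kb. The folds of Frk and Nt5dc1 thus cannot show whether the difference was shared. Genes of hypertrophic cartilage and bone, the setting in which Col10a1 is best known, were scarce. None of 12 was called before culture, 3 of 12 were above the background range in the wild type and 6 of 12 in the mutant library, and their sum was 82.5 and 90.2 CPM. The mineral matrix gene Ibsp had 33 and 105 counts, a fold of 1.72 (1.15 to 2.63), the signal gene Ihh 23 and 32 counts, and the collagenase gene Mmp13 14 and 20 counts.

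Col1a1 had the highest fibrillar fold before culture at 1.73 (1.67 to 1.79), followed by Col1a2 at 1.61 (1.55 to 1.67) and Col2a1 at 1.61 (1.53 to 1.69). Col5a1 stood at 1.57 (1.48 to 1.67), Col11a1 at 1.52 (1.41 to 1.64), Col3a1 at 1.51 (1.46 to 1.55), Col11a2 at 1.37 (1.22 to 1.54) and Col5a2 at 1.22 (1.15 to 1.29). Only Col5a3, at 0.995 (0.820 to 1.21), had an interval that held 1. The median log2 fold of the 9 genes was 0.60, with 8 above 0, against a median of 0.04 over all genes tested, of which 54.5% were above 0. With a rule of 1.5-fold in place of 2-fold, 4 members were called higher, namely Col1a1, Col1a2, Col2a1 and Col8a2, against 0.259% of all genes. With background subtracted, only Col8a2, at 3.21 (1.83 to 5.63), passed that rule, and Col1a1, at 1.54 (1.49 to 1.60), Col1a2, at 1.44 (1.39 to 1.49), and Col2a1, at 1.44 (1.37 to 1.52), did not. With background subtracted the fibrillar sum was 1.40 times that of wild type (1.38 to 1.42). The library scaling of that setting moved all log2 folds by -0.17, and in addition the subtraction moved each gene by its own amount. Scaling to total counts moved all log2 folds by -0.11.

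Several of the others kept company with the fibrillar genes. Col6a2 had a fold of 1.5 (1.36 to 1.66), Col6a1 1.47 (1.33 to 1.63), Col6a3 1.35 (1.26 to 1.46), Col12a1 1.43 (1.34 to 1.52) and Col14a1 1.41 (1.29 to 1.55). The type IX genes lay in the same range, with Col9a2 at 1.55 (1.3 to 1.85), Col9a3 at 1.45 (1.25 to 1.69) and Col9a1 at 1.41 (1.25 to 1.60). Col16a1 stood at 1.40 (1.24 to 1.59), Col27a1 at 1.45 (1.25 to 1.70) and Col23a1 at 1.15 (1.04 to 1.28). Col8a2, which encodes a collagen of the cornea, had 56 and 218 counts and a fold of 2.11 (1.56 to 2.88), with an expected background of 28.8 and 36.1 counts. At the other end, Col22a1 stood at 0.763 (0.642 to 0.908), Col24a1 at 0.771 (0.625 to 0.953), Col28a1 at 0.730 (0.560 to 0.955) and Col19a1 at 0.706 (0.557 to 0.895). The 25 genes had a median log2 fold of 0.24, with 17 above 0 and 8 below.

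Basement membrane genes differed less between the genotypes before culture, and none was called. Col4a1 had a fold of 0.948 (0.925 to 0.971), Col4a2 0.992 (0.957 to 1.03), Col18a1 1.03 (1.0 to 1.06) and Col15a1 1.22 (1.15 to 1.31). Scaling to total counts put Col18a1 at 0.954, so that its direction depends on the scaling. With background subtracted Col4a1 stood at 0.843 (0.823 to 0.863), Col4a2 at 0.884 (0.852 to 0.916) and Col18a1 at 0.915 (0.890 to 0.940), all below wild type. The scarce Col4a3 had a fold of 0.741 (0.592 to 0.929). Counting every gene whose interval lay wholly on either side of 1, 22 of the 43 members were higher and 7 lower, against 17.6% and 8.54% of all genes tested. A gene with many counts has a narrower interval, and members were not matched to other genes on counts.

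Genes of some other cell types of the embryo also had higher values in the mutant library before culture, and those of others did not. The sum of 12 fibroblast and stromal genes was 361 CPM in the wild type and 479.96 CPM in the mutant library, with none called. Among them Prrx1, a limb mesenchyme factor, had a fold of 1.79 (1.49 to 2.15), Pdgfra 1.49 (1.32 to 1.69) and Thy1 1.33 (1.18 to 1.5). The sum of 13 chondrocyte genes was 372 and 459 CPM, with Acan, the cartilage aggrecan gene, at 1.29 (1.13 to 1.46) and Sox9 at 1.41 (1.16 to 1.71). The sum of 10 skeletal muscle genes was 460.2 and 515 CPM, with Actc1, an embryonic actin gene, called higher at 2.76 (2.14 to 3.60). In contrast, 10 pan-endothelial genes summed to 4064 and 4335 CPM and 7 lymphatic genes to 7589.6 and 7177 CPM. None of the defining genes of these lists was at 0 counts before culture. The 7 adipocyte genes summed to 95.7 and 84.8 CPM and the 7 leukocyte genes to 129 and 134 CPM. The median log2 fold was 0.46 for the skeletal muscle, 0.40 for the fibroblast and 0.31 for the chondrocyte list, against 0.03 for smooth muscle, -0.04 for leukocytes, -0.14 for hypertrophic cartilage and bone and -0.19 for adipocytes. The part of other cells in the fibrillar folds was not tested.

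After culture, the same comparison of genotypes called no member in either direction among the 40 that could be tested, where 0.244% of 12309 genes were called higher and 0.0731% lower. Counts were too few for Col10a1, Col19a1 and Col8a2. The abundant fibrillar and basement membrane genes had lower values in the mutant library, which for the fibrillar genes is the opposite of the values before culture. The fibrillar sum was 0.821 times that of wild type (0.784 to 0.861) and the basement membrane sum 0.866 times (0.850 to 0.883).

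Col3a1 had a fold of 0.604 (0.517 to 0.708), the lowest among members tested after culture. Col5a2 stood at 0.679 (0.616 to 0.750), Col1a2 at 0.798 (0.725 to 0.879) and Col1a1 at 0.879 (0.791 to 0.978). For Col2a1, at 1.04 (0.883 to 1.24), Col5a1, at 1.06 (0.902 to 1.25), Col11a1, at 1.23 (0.916 to 1.68), and Col11a2, at 1.38 (0.790 to 2.53), no difference could be detected at this depth. The median log2 fold of the 9 fibrillar genes was therefore 0.06, opposite in sign to their sum, which follows the most abundant genes. Col4a1 and Col4a2 had folds of 0.861 (0.839 to 0.884) and 0.859 (0.829 to 0.889), and Col18a1 0.917 (0.862 to 0.977). Col6a3 stood at 0.696 (0.596 to 0.814), Col6a1 at 0.772 (0.677 to 0.881) and Col6a2 at 0.889 (0.770 to 1.03). Among the 23 others tested, 15 had log2 folds above 0 and 8 below. Their median was 0.37, against -0.01 over all genes tested. Col12a1 had a fold of 1.68 (1.36 to 2.09). Col27a1, a cartilage fibril gene with 12 and 99 counts, had a fold of 3.39 (1.86 to 6.78) and was the 1 member called higher with the 1.5-fold rule, against 0.886% of all genes. Intervals wholly above 1 were found for 4 members and wholly below 1 for 10, against 9.48% and 12.3% of all genes tested.

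Adipocyte genes differed between the cultured libraries in the same direction as Col3a1. Their 7-gene sum was 899.9 CPM in the wild type and 610.3 CPM in the mutant library, with Adipoq, the adiponectin gene, at 0.236 (0.158 to 0.347) and Car3 at 0.0754 (0.0357 to 0.145) called lower. The sum of the 12 fibroblast and stromal genes was 810.4 and 808 CPM, and that of the 13 chondrocyte genes 338 and 297 CPM. OP9 cells can turn into fat cells in culture, and the part of feeder cells in the collagen folds was not tested.

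**Figure D3:**
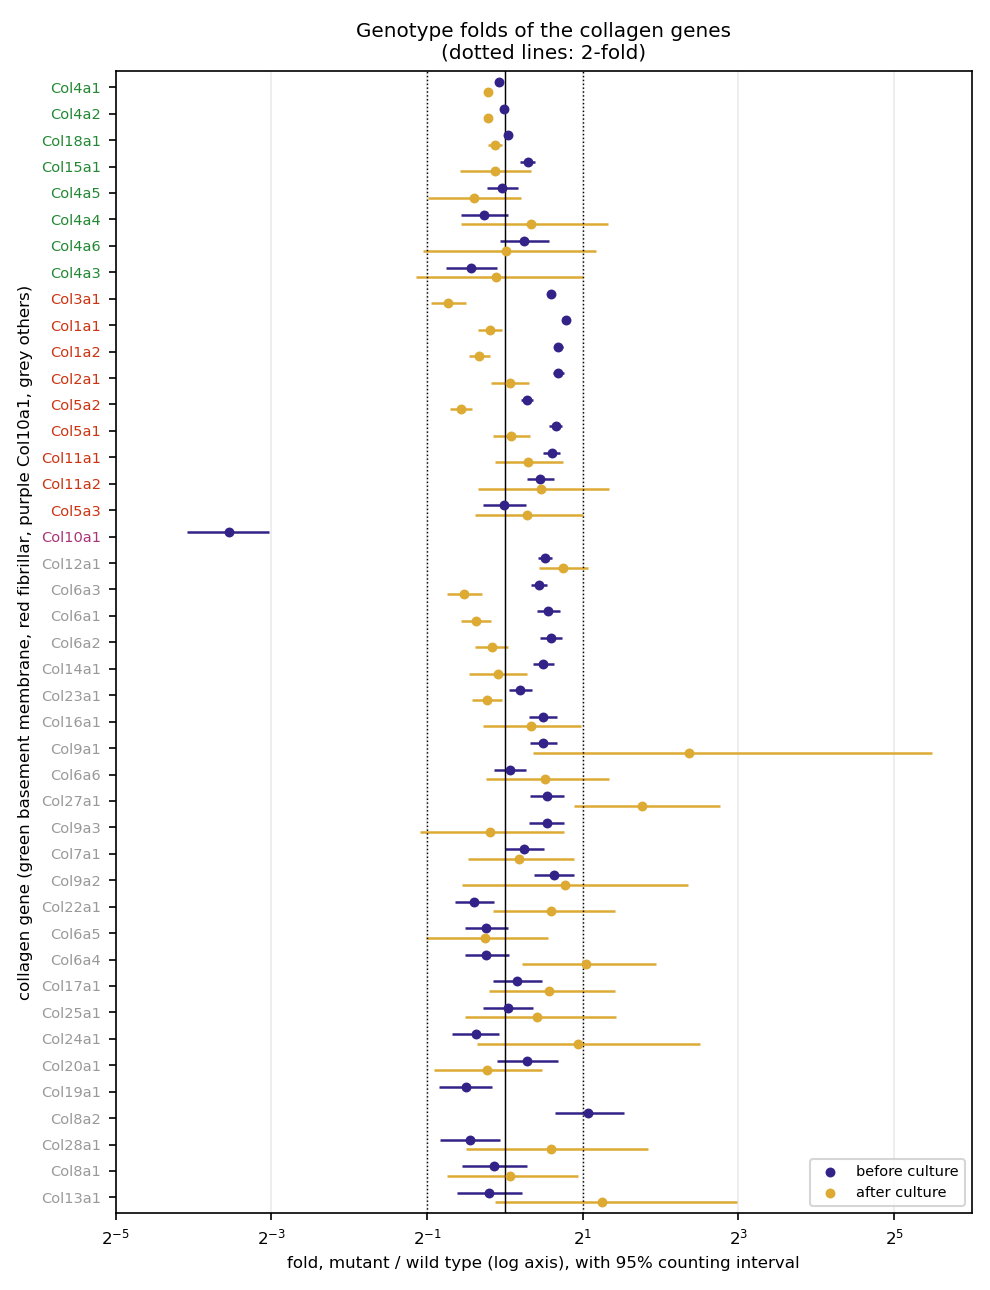
Fold of the mutant over the wild type library for each collagen gene before culture (dark) and after culture (gold), on a log axis with 95% counting intervals and dotted lines at 2-fold; genes with too few counts in a comparison have no point. The fibrillar genes Col3a1, Col1a1, Col1a2 and Col5a2 lie right of 1 before culture and left of 1 after it, and Col10a1 lies far left before culture.

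The change of the genotype fold with culture was described by the ratio of the fold after culture to the fold before it. For Col3a1 the ratio was 0.401 (0.343 to 0.470), for Col1a2 0.495 (0.447 to 0.548), for Col1a1 0.508 (0.455 to 0.567) and for Col5a2 0.558 (0.499 to 0.623). Col2a1 and Col5a1 had ratios of 0.648 (0.546 to 0.770) and 0.674 (0.569 to 0.797). For 6 of the 9 fibrillar genes the interval lay wholly below 1, and for none wholly above it, with a median ratio of 0.648. Among the 25 others, 6 lay wholly below 1 and 5 wholly above it. These 5 include the cartilage fibril gene Col27a1, at 2.33 (1.26 to 4.33), and Col24a1, at 2.49 (1.01 to 6.15). Of the type VI genes, Col6a3, Col6a1 and Col6a2 ranged from 0.514 (0.434 to 0.609) for Col6a3 to 0.591 (0.497 to 0.703) for Col6a2. The scarcer Col6a4 lay on the other side at 2.42 (1.35 to 4.35), and the intervals of Col6a5, at 0.993 (0.577 to 1.71), and Col6a6, at 1.37 (0.806 to 2.32), held 1. Among 12272 genes with counts in all 4 libraries, 21.4% had intervals wholly below 1 and 8.03% wholly above it, with a median ratio of 0.932. Col4a1, at 0.909 (0.877 to 0.941), lay near that median, and with background subtracted stood at 1.08 (1.04 to 1.12), so that its direction depends on that setting.

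Culture of wild type cells asks what the OP9 culture alters without the deletion, and culture of mutant cells asks the same with it. Col4a1 and Col4a2 rose and most fibrillar genes fell in both. In wild type cells, Col4a1, Col4a2 and Col6a1 were called higher and 16 members lower, where 8.17% of 17154 genes were called higher and 5.77% lower. In mutant cells, Col4a1 and Col4a2 were called higher and 18 members lower, where 5.19% of 18807 genes were called higher and 3.62% lower. The 2 comparisons share no library, and 12 genes were called lower in both, 75.0% of the 16 and 66.7% of the 18. The same overlap was not computed over all genes, so these shares describe the members only. The receptor gene background was also lower after culture in both genotypes.

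Col4a1 rose 3.01-fold (2.92 to 3.09) in wild type and 2.73-fold (2.68 to 2.79) in mutant cells, and Col4a2 rose 3.82-fold (3.67 to 3.98) and 3.31-fold (3.22 to 3.41). The rest of the group did not share the rise. Col15a1 fell 5.68-fold (4.39 to 7.46) in wild type and 7.58-fold (6.38 to 9.07) in mutant cells. Col18a1 stood at 0.659 (0.623 to 0.697) and 0.588 (0.566 to 0.611) times its level before culture, and Col4a5 at 0.417 (0.290 to 0.585) and 0.324 (0.249 to 0.415), the latter called, as was Col4a6 in mutant cells at 0.273 (0.177 to 0.407). The basement membrane sum was 2.19 times its earlier value (2.14 to 2.23) in wild type and 1.90 times (1.88 to 1.93) in mutant cells, opposite in sign to the median log2 folds of -1.40 and -1.15, as Col4a1 and Col4a2 hold most of the counts. With background subtracted the sums were 1.60 and 1.65 times. The library scaling of that setting moved all log2 folds by -0.47 in wild type and -0.22 in mutant cells. In addition the subtraction moved each gene by its own amount. Scaling to total counts moved all log2 folds by -0.62 and -0.45, so that the sizes of the culture folds depend on the scaling.

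Col3a1 fell most among the abundant fibrillar genes, 6.33-fold (5.6 to 7.17) in wild type and 15.8-fold (14.3 to 17.5) in mutant cells. Col1a1 fell 2.52-fold (2.30 to 2.77) and 4.96-fold (4.67 to 5.28), and Col2a1 2.92-fold (2.53 to 3.40) and 4.51-fold (4.12 to 4.95). Col11a1 and Col11a2 fell 4.20-fold (3.23 to 5.55) and 6.54-fold (4.03 to 11.3) in wild type, and 5.16-fold (4.44 to 6.04) and 6.51-fold (4.99 to 8.66) in mutant cells. Col1a2 was called in mutant cells, where it fell 3.18-fold (2.99 to 3.37), and stood 1.57-fold lower (1.45 to 1.71) in wild type cells. Col5a1 was likewise called in mutant cells, where it fell 3.01-fold (2.75 to 3.29), and stood 2.03-fold lower (1.76 to 2.35) in wild type cells. Col5a2 had a culture fold of 1.32 (1.21 to 1.44) in wild type and 0.736 (0.688 to 0.787) in mutant cells. The wild type value of Col5a2 was 0.971 (0.887 to 1.06) with background subtracted, so that its direction depends on that setting. Of the 9 fibrillar genes 5 were called lower in wild type and 7 in mutant cells, against 5.77% and 3.62% of all genes tested. None was called higher.

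Among the others, the type IX genes of cartilage fell in both genotypes. Col9a1, with 2 counts in the cultured wild type library, fell 49.7-fold (13.6 to 412) there and 13.6-fold (9.18 to 21.2) in mutant cells. Col9a2 fell 8.0-fold (3.60 to 22.1) and 7.23-fold (4.84 to 11.3), and Col9a3 4.0-fold (2.41 to 7.12) and 6.64-fold (4.70 to 9.68). Col12a1 fell 3.40-fold (2.79 to 4.18) and 2.89-fold (2.62 to 3.20), Col16a1 3.26-fold (2.25 to 4.91) and 3.63-fold (2.93 to 4.55), and Col6a6 4.49-fold (2.82 to 7.55) and 3.28-fold (2.54 to 4.30). Col14a1 was called lower in mutant cells, at 0.326 (0.280 to 0.377), and stood at 0.490 (0.388 to 0.613) in wild type cells. Col27a1, Col22a1 and Col24a1 were called lower only by the wild type comparison, at 0.186 (0.0947 to 0.331), 0.301 (0.178 to 0.481) and 0.140 (0.0507 to 0.312). Col8a2 was called only by the mutant comparison, at 0.101 (0.0431 to 0.203). The mutant over wild type ratios of these culture folds were 2.33 (1.26 to 4.33), 1.99 (1.16 to 3.39), 2.49 (1.01 to 6.15) and 0.312 (0.0984 to 0.992) in that order. These intervals cover counting error only, and no test was run. With background subtracted Col24a1 and Col8a2 had no ratio. In that setting Col27a1 was called lower in both genotypes, Col22a1 in wild type cells only, Col24a1 in mutant cells only and Col8a2 in neither. Col10a1 fell 15.6-fold (6.0 to 57.7) in wild type cells, to 4 counts. In mutant cells, where it was at background at both times, its fold was 0.689 (0.292 to 1.46). The receptor gene background itself was lower after culture, from 6.64 to 0.534 counts per kb in wild type and from 8.33 to 1.62 in mutant cells, so that counts of scarce genes before culture include more of it.

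The genes of the others with higher values after culture were Col6a1, Col6a2 and Col23a1. Col6a1 rose 2.52-fold (2.20 to 2.90) in wild type cells, a call that was lost with background subtracted, where its fold was 1.91 (1.66 to 2.20). In mutant cells its fold was 1.32 (1.2 to 1.45), or 0.970 when scaled to total counts. Col6a2 had folds of 1.87 (1.61 to 2.17) and 1.11 (1.0 to 1.22), the latter 0.811 when scaled to total counts. Col23a1 had folds of 2.12 (1.84 to 2.44) and 1.57 (1.42 to 1.73). Col6a3, whose chain joins the same filaments, stood at 0.934 (0.812 to 1.07) in wild type and 0.480 (0.433 to 0.531) in mutant cells. All 43 genes together had a median log2 fold of -1.54 in wild type and -1.20 in mutant cells, against -0.02 and -0.08 over all genes tested.

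**Figure D4:**
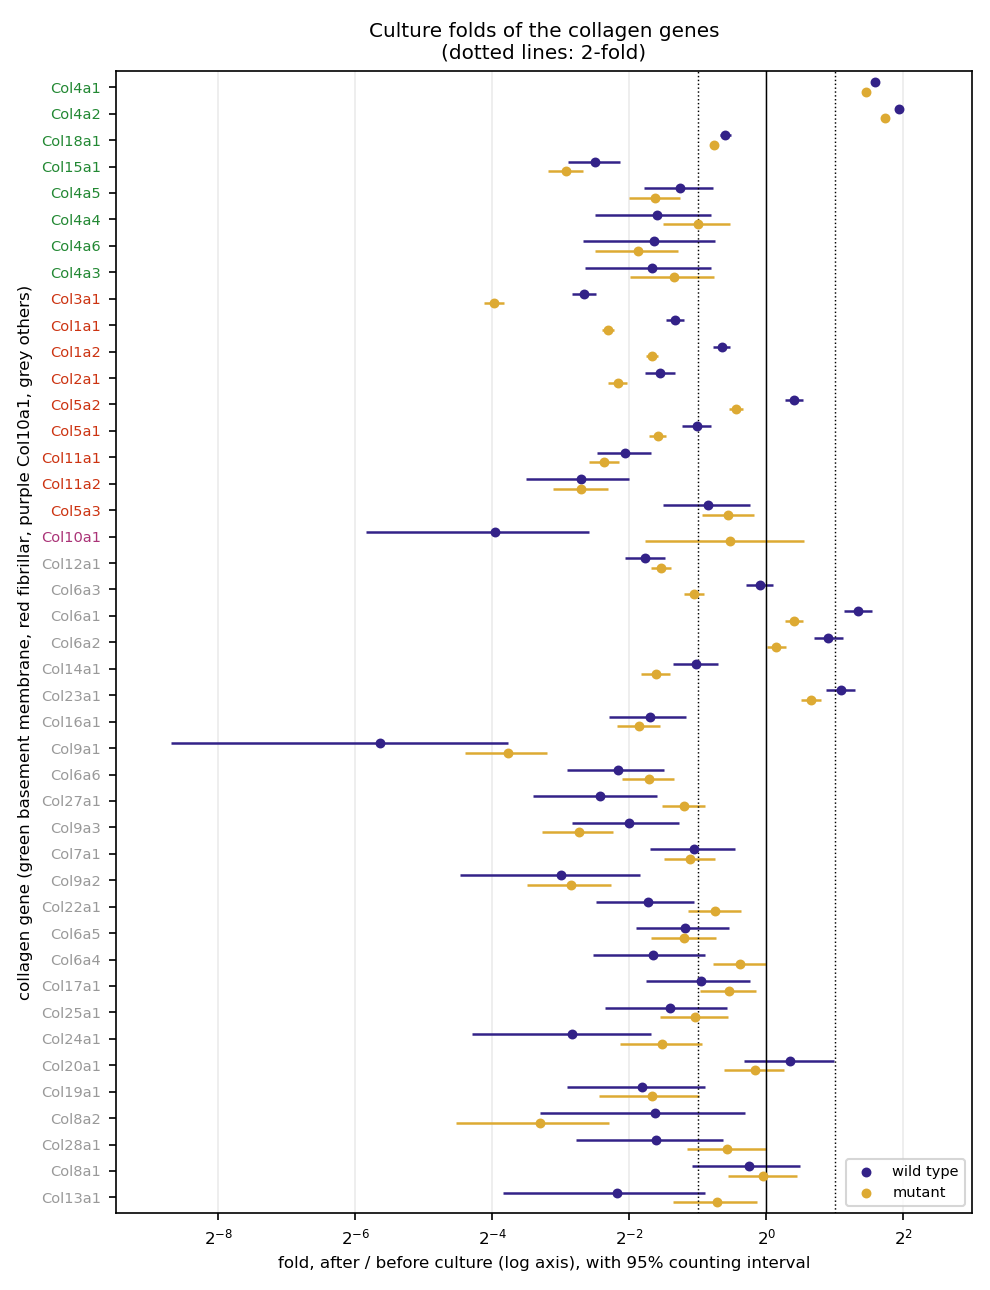
Fold of the library after culture over the library before culture for each collagen gene, in wild type (dark) and mutant cells (gold), on a log axis with 95% counting intervals and dotted lines at 2-fold. Col4a1 and Col4a2 lie beyond 2-fold on the right in both, Col6a1 in wild type cells, and the fibrillar genes other than Col5a2 lie left of 1.

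Markers of several cell types differed between the culture states. Over all genes tested, 8.17% were called higher and 5.77% lower in wild type culture, and 5.19% and 3.62% in mutant culture. Pan-endothelial genes summed to 4064 and 4335 CPM before culture and to 12874 and 11744 CPM after it, with 8 of 10 called higher in wild type and 7 of 10 in mutant cells. Chondrocyte genes summed to 372, 459, 338 and 297 CPM, with 4 called lower and none higher in either genotype. Acan was 5.08-fold lower in wild type cells. Fibroblast and stromal genes summed to 361, 479.96, 810.4 and 808 CPM. The higher sum after culture lay in the chemokine gene Cxcl12, with 31.3, 41.1, 586 and 573 CPM, whereas Thy1, at 78.7, 105, 9.46 and 10.8 CPM, and Twist1 were called lower in both genotypes and Dpt, a dermal matrix gene, was at 0 in both cultured libraries. Adipocyte genes summed to 95.7, 84.8, 899.9 and 610.3 CPM, with Fabp4 at 37.7, 30.1, 394 and 335 CPM. Skeletal muscle genes summed to 460.2, 515, 130.2 and 185 CPM. Lymphatic genes summed to 7589.6, 7177, 7517 and 6324 CPM, but Prox1, Pdpn, Mmrn1 and Reln were called lower in both genotypes. Lyve1 was called higher in both, and Flt4 in wild type cells only. The median log2 fold of the lymphatic list was -1.29 in wild type and -1.82 in mutant cells. Leukocyte genes summed to 129, 134, 210.2 and 212 CPM, with Coro1a and Cd52 at 0 in the cultured wild type library. Their median log2 fold was negative in both genotypes, although Lcp1 was called higher in both. Csf1r was called lower in wild type and Laptm5 in mutant cells. Smooth muscle and pericyte genes summed to 117, 129.6, 212 and 234 CPM, with Acta2 called higher in both genotypes. The part of any of these cells in the collagen changes was not tested.

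Many collagens are built from different chains, and in 4 of the 7 pairs compared the intervals of the ratio of partner messages per kb did not overlap between the culture states of either genotype. Such ratios were not computed for pairs of other genes, so this count describes the listed pairs only. The ratio of Col4a1 to Col4a2 was 2.24 (2.16 to 2.32) and 2.14 (2.08 to 2.20) before culture and 1.76 (1.70 to 1.82) and 1.77 (1.72 to 1.81) after it, wild type first. Col1a1 to Col1a2 went from 1.16 (1.11 to 1.21) and 1.24 (1.21 to 1.27) to 0.721 (0.641 to 0.811) and 0.794 (0.732 to 0.862), so that the order of the type I chains was inverted after culture. Col5a1 to Col5a2 was 0.677 (0.633 to 0.725) and 0.873 (0.837 to 0.911) before culture and 0.253 (0.216 to 0.296) and 0.394 (0.355 to 0.438) after it, and here the genotypes differed beyond counting error at both times. Col6a3 to Col6a1 was 0.759 (0.682 to 0.847) and 0.698 (0.654 to 0.746), against 0.281 (0.238 to 0.331) and 0.253 (0.224 to 0.286) after culture. Col6a1 to Col6a2 was 1.39 (1.22 to 1.57) and 1.36 (1.26 to 1.46), against 1.87 (1.59 to 2.20) and 1.62 (1.45 to 1.82), and the intervals of the mutant libraries just overlap. For Col11a1 to Col11a2, at 1.86 (1.66 to 2.10) and 2.06 (1.91 to 2.22) before culture, the intervals after culture of 1.67 to 5.31 and 1.92 to 3.56 were too wide to show a difference. The ratio of Col9a1 to Col9a2 was 1.47 (1.23 to 1.78) and 1.34 (1.2 to 1.5) before culture and could not be read in the cultured wild type library, with 2 and 6 counts.

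**Figure D5:**
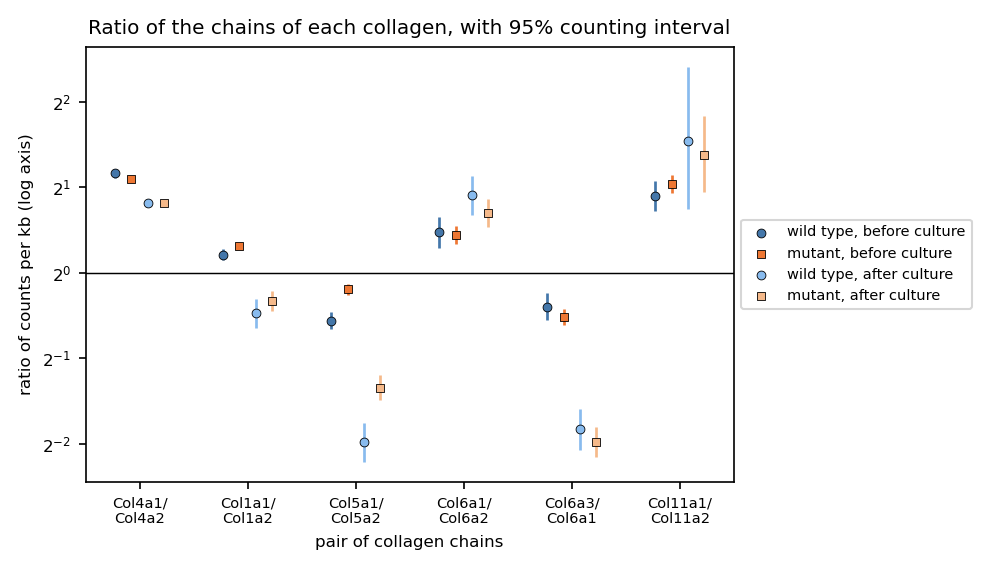
Ratio of counts per kb of exon for 6 pairs of collagen chains in each library, on a log axis with 95% counting intervals. Col1a1/Col1a2 lies above 1 before culture and below 1 after it, and Col5a1/Col5a2 and Col6a3/Col6a1 lie lowest in the cultured libraries.

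Collagen chains are modified, folded, secreted and crosslinked by a shared set of enzymes and chaperones, of which 33 were listed. None was called between genotypes at either time. Their median log2 fold in the mutant library was 0.21 before culture and -0.10 after it, against 0.04 and -0.01 over all genes. In wild type culture 6 were called higher and 1 lower, against 8.17% and 5.77% of all genes tested. In mutant culture 3 were called higher and 4 lower, against 5.19% and 3.62%. Whether the list differs from these shares was not tested. Sparc, a chaperone-like matrix protein that binds collagen, rose 6.74-fold (6.38 to 7.13) in wild type and 4.44-fold (4.27 to 4.60) in mutant cells, from 389 and 487 CPM. P4ha1, a subunit of the enzyme that hydroxylates collagen prolines, rose 4.79-fold (4.18 to 5.50) and 4.25-fold (3.88 to 4.65). Bmp1, the protease that trims fibrillar procollagen ends, fell to 0.288 (0.209 to 0.390) and 0.305 (0.255 to 0.363) of its level before culture. The others called higher in wild type cells were the lysyl hydroxylase genes Plod1 and Plod3, the galactosyltransferase gene Colgalt1 and the prolyl hydroxylase gene P3h3. Tll1 was called higher in mutant cells only, and P3h2, Adamts2 and Adamts3, the latter pair encoding procollagen proteases, were called lower in mutant cells. Serpinh1, the collagen-specific chaperone gene, had 424, 508, 578 and 536 CPM and was not called.

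Of the 10 collagen receptor genes none was called in any of the 4 comparisons, and Itgb1, the shared integrin beta chain, was the most abundant at 806, 780.1, 1200.4 and 1132 CPM. Ddr2, a receptor kinase for fibrillar collagen, had 57.2, 77.1, 48.7 and 63.7 CPM. For the lists of this paragraph, the shares of all genes called higher and lower were 8.17% and 5.77% in wild type culture. They were 5.19% and 3.62% in mutant culture. Among 8 partners of the basement membrane, 4 were called higher and 1 lower in wild type culture, and 2 higher and 1 lower in mutant culture. Hspg2, which encodes perlecan, rose 8.03-fold (7.76 to 8.32) and 5.82-fold (5.69 to 5.96), Nid1, which links laminin to type IV collagen, rose 4.23-fold (3.98 to 4.49) and 3.28-fold (3.15 to 3.42), and Lamb1, a laminin chain, fell to 0.230 (0.198 to 0.265) and 0.169 (0.152 to 0.188) of its level. Of 11 small proteoglycans and fibril partners, 2 were called higher and 3 lower in wild type culture, and 3 higher and 5 lower in mutant culture. Fn1, the fibronectin gene, rose 5.06-fold (4.92 to 5.2) and 4.01-fold (3.94 to 4.09), whereas Postn, which encodes periostin, fell to 0.152 (0.105 to 0.214) and 0.0943 (0.0749 to 0.117) of its level, and Dcn, which encodes decorin, to 0.181 (0.0920 to 0.321) and 0.0664 (0.0377 to 0.109).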

How the data were processed

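Total RNA of 4 libraries of sorted cells, 1 per group, was made with a Smart-Seq stranded kit and sequenced as read pairs of 75 bases, per the labels' protocols. The deposited counts are raw read pairs per gene symbol. The submitters' processing notes name bcl2fastq, STAR, HTSeq 0.11.2 and build mm10, and the deposited file names say that duplicates were removed with sambamba. The gene annotation and the strand setting used in counting were not given in the sources used here. Rows that name no gene were left out of library sizes.

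Counts were scaled by TMM in edgeR 4.0.16 (R 4.3.3), with factors of 0.811 to 1.25. Exact Poisson and Clopper-Pearson intervals (95%) came from scipy 1.17.1 in Python 3.11.15 and cover counting error only. A gene was tested with at least 20 counts in either library compared. Median log2 folds used a prior count of 0.5. Fold scripts were tested on simulated data. Exon lengths and coordinates came from an mm10 annotation and covered 98.0% of symbols.

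Alternatives were DESeq2 1.42.0 size factors, upper quartile and total count scaling, background subtraction, other count minimums and other fold thresholds. Members and gene lists were chosen with earlier results of these data known. Values in every library are given for the 6 members with most counts per group, partner chains and called members, and up to 3 genes of each list. Marker and enzyme genes named beyond that were chosen after their values were seen. Sequences are RefSeq promoter windows on GRCm38.p6, with none for Col1a1 or Col2a1.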

Additional observations from a re-analysis of the deposited data

Results flagged for a closer look

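For 8 collagen genes the mutant over wild type fold lay above 1 before culture and below 1 after it, with both intervals clear of 1. A total of 40 members were tested in both comparisons, and 4.66% of all genes so tested had the pattern. With background subtracted it was found for 5 members, Col3a1, Col1a2, Col5a2, Col6a3 and Col6a1, out of 37 tested in both, and for 1.77% of all genes. It was lost for Col1a1, at 0.929 (0.836 to 1.03) after culture, for Col23a1, at 1.05 (0.943 to 1.17) before it, and for Col18a1, at 0.915 before and 0.971 after it. The difference itself was not tested, since each group is 1 library. The fold after culture divided by the fold before it was 0.401 for Col3a1, 0.495 for Col1a2, 0.508 for Col1a1 and 0.558 for Col5a2 among the fibrillar genes. It was 0.514 for Col6a3 and 0.524 for Col6a1 of type VI, 0.742 for Col23a1 and 0.892 for Col18a1. For Col18a1, whose fold before culture was 1.03, the direction depends on the scaling.

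Col5a2 also had culture folds on opposite sides of 1, above it in wild type and below it in mutant cells, with a ratio of 0.558 of mutant over wild type. This is the same set of 4 counts as its genotype ratio, and the difference was not tested.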

How the results depend on the processing

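Between genotypes before culture, members called higher numbered 4 with a 1.5-fold rule against 0 with the 2-fold rule, and members called lower numbered 0 with background subtracted against 1, because the mutant Col10a1 count was not separable from background. After culture, 1 was called higher with the 1.5-fold rule against 0. For wild type culture, members called higher numbered 1 with total counts, 5 with the 1.5-fold and 1 with a 3-fold rule, against 3. Members called lower there numbered 27 with upper quartile scaling, 31 with total counts, 26 with the 1.5-fold and 9 with the 3-fold rule, against 16. With background subtracted the wild type numbers were 2 higher and 18 lower. For mutant culture, members called higher numbered 1 with total counts and 1 with the 3-fold rule, against 2. Members called lower in mutant culture numbered 26 with the 1.5-fold rule, 21 with background subtracted and 10 with the 3-fold rule, against 18. For both culture comparisons, shares of all genes called are given for the 2-fold rule with TMM scaling only. Scaling by total counts moved all log2 folds by -0.62 in wild type and -0.45 in mutant culture, and upper quartile scaling by -0.45 and -0.33. The libraries before and after culture come from parts of the same sorts, but no paired analysis was run. A model with both factors and no interaction, which has 1 residual degree of freedom, was not run. The cultured wild type library has the fewest counts and limits what can be seen in scarce members.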
